A study of Homo sapiens with 23 samples.

Results

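The 10 genes described here encode small non-coding RNAs of general use in the cell. Of these, 5 are small nuclear RNA genes transcribed by RNA polymerase II (RNU2-2P, RNU4-1, RNU4-2, RNU5A-1 and RNU5B-1) and 5 are genes of RNA polymerase III (RN7SK, RMRP, RPPH1, RN7SL1 and RN7SL2). They were chosen by the presence of ChIP-seq peaks near them in these lists, and their member peaks are those with an edge within 3 kb of 1 hg19 position given for each gene. This gave 30 peaks of 52708 in all. Since the listing of a peak, with its tags, score and fold, chose the genes, these values are given as a description and no test was made on them.

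The series used SH-SY5Y, a human neuroblastoma line that becomes neuron-like under retinoic acid followed by brain-derived neurotrophic factor (BDNF). Its 23 samples comprise 14 ChIP and 9 input libraries, and the peak lists of 5 ChIP samples were used here. These are SVIL at day 3 of BDNF, LSD1+8a at day 3 and LSD1 at day 3, all in cells infected with a control shRNA, then LSD1 at day 0 in cells infected with an shRNA against LSD1+8a, and LSD1 at day 0 in cells with the control shRNA. All cells had first been given retinoic acid, 10 µM for 4 days per the labels' protocols, and the day 3 cells also 50 ng/mL BDNF in serum-free medium. LSD1 (KDM1A) removes methyl groups from histone lysines, LSD1+8a is its neuronal splice form, and SVIL (supervillin) binds actin and is named in the design text as cofactor of LSD1+8a. Each list is 1 library with no replicate, these files give no measure of how far LSD1+8a was depleted, and the input libraries were not analysed here.

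RNA polymerase II transcribes the U2, U4 and U5 RNAs, which build the spliceosome, from compact promoters that lack a TATA box. The polymerase III genes RN7SK, RMRP and RPPH1 use promoters that lie outside the transcribed part and resemble those of the small nuclear RNA genes, with a TATA box added, while RN7SL1 and RN7SL2 also need elements inside the gene. In the small nuclear RNA genes and in RN7SK, RMRP and RPPH1, a distal element that often carries the octamer bound by OCT1 lies upstream of a proximal element bound by the SNAP complex. 7SK RNA holds the elongation factor P-TEFb inactive, RMRP and RPPH1 encode the RNA parts of RNase MRP and RNase P, which cut ribosomal and transfer RNA precursors, and 7SL RNA is the scaffold of the signal recognition particle. Most of these genes have near-identical copies or pseudogenes elsewhere in the genome. Reads of 50 bp can align to several copies, and how they were handled is not given in the sources used, so that peaks inside the transcribed sequence are uncertain.

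The RefSeq table, which is on GRCh38.p14, matched 10 of 10 genes by symbol or synonym and names the genes next to them. RNU2-2P, now called RNU2-2 there, overlaps WDR74, RNU4-1 and RNU4-2 overlap SIRT4 and lie side by side, RNU5A-1 and RNU5B-1 are neighbours of each other, RMRP lies next to CCDC107, RPPH1 next to PARP2 and RN7SK next to GSTA4. RPPH1 and PARP2 are known to be transcribed away from each other from a shared promoter. The table of promoters has no entry for any of the 10 RNA genes. For 3 of the neighbours that start beside an RNA gene, a promoter window (250 bases before to 50 after the start of the neighbour) is shown. LSD1 peaks described below lie at these gene pairs, but also at pairs whose windows are not shown, such as RNU2-2P with WDR74. Capitals mark every match, on either strand, to the TATA box letters TATAA or TATAT, the octamer ATGCAAAT, the ZNF143 core CCCANNATG, the cAMP response element TGACGTCA and the GC box GGGCGG. The sequences are from RefSeq, GRCh38.p14, on the plus strand, and were not carried over to hg19.

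PARP2, beside RPPH1, chr14:20343385-20343684: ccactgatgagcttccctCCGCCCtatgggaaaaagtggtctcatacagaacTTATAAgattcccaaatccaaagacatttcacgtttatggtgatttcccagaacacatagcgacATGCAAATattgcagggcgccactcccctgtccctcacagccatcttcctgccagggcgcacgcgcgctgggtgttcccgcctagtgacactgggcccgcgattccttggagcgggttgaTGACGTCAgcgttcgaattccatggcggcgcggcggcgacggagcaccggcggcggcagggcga

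CCDC107, beside RMRP, chr9:35658042-35658341: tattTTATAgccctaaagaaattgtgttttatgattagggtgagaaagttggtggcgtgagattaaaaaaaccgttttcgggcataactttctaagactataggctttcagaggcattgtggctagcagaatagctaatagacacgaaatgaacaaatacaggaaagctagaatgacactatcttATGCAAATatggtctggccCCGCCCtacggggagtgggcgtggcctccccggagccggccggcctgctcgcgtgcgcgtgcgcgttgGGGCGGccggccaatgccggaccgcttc

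SIRT4, beside RNU4-2, chr12:120291939-120292238: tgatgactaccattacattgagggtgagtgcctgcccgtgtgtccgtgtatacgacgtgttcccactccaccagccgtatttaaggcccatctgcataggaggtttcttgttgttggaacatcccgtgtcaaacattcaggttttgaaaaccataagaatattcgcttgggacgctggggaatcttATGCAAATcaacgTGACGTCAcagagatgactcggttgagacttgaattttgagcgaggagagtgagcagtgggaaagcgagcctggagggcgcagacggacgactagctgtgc

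Each of these 3 windows holds 1 octamer, a word found in 1.77% of the 35116 promoter windows of the table. No window of the other adjacent genes held an octamer, so the 3 shown do not stand for the adjacent genes as a set. The PARP2 window also has the letters TTATAA near its RPPH1 side, which read as a TATA box on both strands, and the cAMP response element TGACGTCA near the PARP2 start, a word found in 1.85% of windows. The CCDC107 window has a TATA box match on the minus strand at bases 5 to 9, the end that faces RMRP, and the SIRT4 window has its octamer at bases 187 to 194, the cAMP response element at bases 200 to 207 and no TATA box match. TATA box letters occurred in 26.0% of all windows and GC boxes in 45.0%. Over all 15 windows of the 13 adjacent genes in the table, 4 held an octamer, 2 of them from different starts of SIRT4, and 2 held the ZNF143 core, against 4.63% of all windows. The 2 WDR74 windows held none of the 5 motifs. These matches are descriptions of the letters only.

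LSD1 was listed at most of the genes on both days, SVIL mainly at the small nuclear RNA genes of polymerase II, and LSD1+8a at RNU2-2P alone. SVIL had a peak at 5 of the 10 genes, 4 of polymerase II and 1 of polymerase III, where 0.303% of all positions on a 1 kb grid lay within 3 kb of a SVIL peak. LSD1+8a had a peak at 1 gene (grid share 0.786%). LSD1 in control cells at day 3 had peaks at 7 genes, 5 of polymerase II and 2 of polymerase III (grid share 4.74%). In knockdown cells at day 0, peaks of LSD1 lay at 8 genes, 3 of polymerase II and 5 of polymerase III (grid share 2.30%). LSD1 in control cells at day 0 had peaks at 8 genes, 5 of polymerase II and 3 of polymerase III (grid share 3.75%). The grid counts all of the genome between the outermost peaks and is no match for gene starts, and the genes were picked for their peaks, so nothing is read from these counts against it. The counts also move with the length of the lists. With every list shortened to its top 1452 peaks by score, which is the length of the SVIL list, LSD1 had peaks at 1 of the 10 genes in control cells at day 3, 2 in knockdown cells and 1 in control cells at day 0, and RNU2-2P was no longer present in all 5. No grid share was computed for the shortened lists or for the counts by nearest gene.

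**Figure D1:**
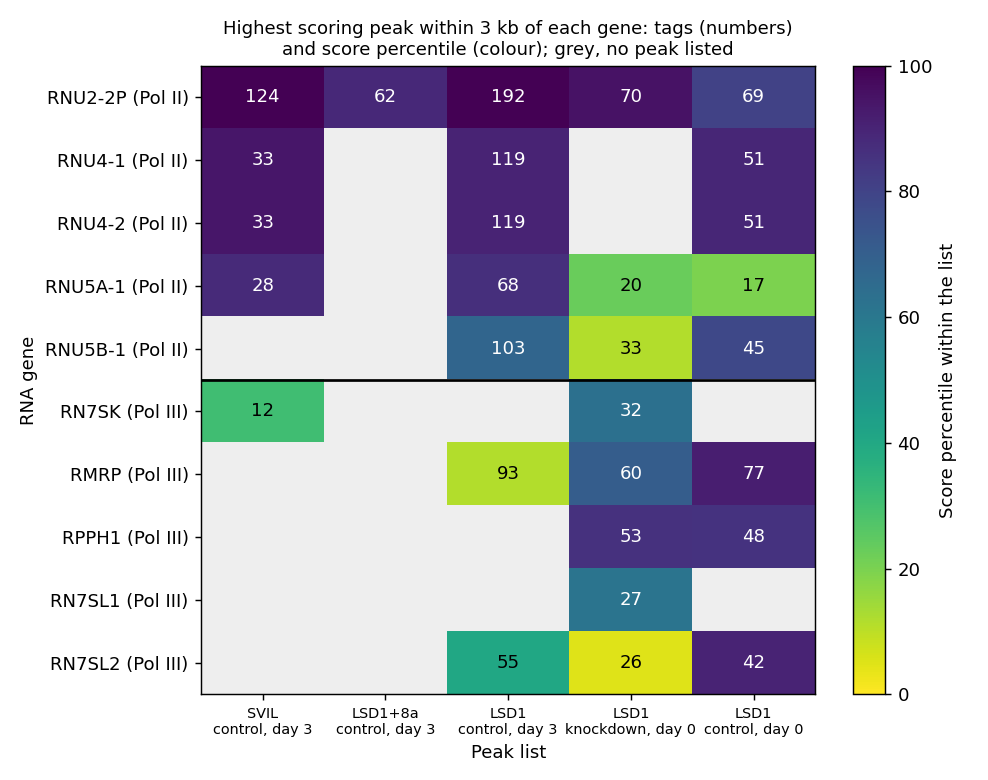
Highest scoring peak within 3 kb of each RNA gene (rows) in each of the 5 peak lists (columns), with the number of tags written in the cell, the percentile of the peak's score within its list as colour, and grey where no peak was listed. RNU2-2P is filled in all 5 columns, LSD1+8a has no other gene, and RN7SL1 is filled only for LSD1 in knockdown cells; RNU4-1 and RNU4-2 share their peaks.

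RNU2-2P, a gene for U2 small nuclear RNA on chromosome 11, was the only one of the 10 genes with a peak in all 5 lists. Of all merged regions, 0.432% held peaks of all 5 lists, and 0.0330% of grid positions had all 5 within 3 kb. The SVIL peak (62608795 to 62609414) had 124 tags (exact Poisson 95% interval 103 to 148), a fold enrichment of 96.74 and rank 2 by score of 1452 peaks. The LSD1+8a peak (62608687 to 62609570) had 62 tags (47.5 to 79.5), a fold of 17.61 and rank 391 of 3378. LSD1 in control cells at day 3 (62608427 to 62609706) had 192 tags (166 to 221), a fold of 60.61 and rank 55 of 20748. LSD1 at day 0 had 70 tags (54.6 to 88.4), a fold of 12.1 and rank 484 of 10248 in knockdown cells, against 69 tags (53.7 to 87.3), a fold of 8.66 and rank 3320 of 16882 in control cells. The gene thus stood near the top of the SVIL list and of the day 3 LSD1 list and lower in the control list of day 0. Ranks from lists of different length and tags from libraries of unknown depth do not measure a change. Fold, score and rank are the authors' own values for each peak. The 5 summits lay within 182 bp of the gene position, all on the side of lower coordinates, at distances of 115 bp for SVIL, 150 bp for LSD1+8a, 182 bp for LSD1 at day 3, 107 bp for LSD1 in knockdown cells and 110 bp in control cells at day 0.

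A second, smaller LSD1 peak lay about 2 kb from RNU2-2P in each of the 3 LSD1 lists and in neither the SVIL nor the LSD1+8a list. It had 29 tags and a fold of 12.31 in control cells at day 3. At day 0 it had 33 tags and a fold of 17.95 in knockdown cells, against 37 tags and a fold of 7.99 in control cells. In knockdown cells the second peak had fewer tags than the peak at the gene (33 and 70) but the higher fold (17.95 and 12.1), while in the other lists both were higher at the gene. RefSeq lists the starts of WDR74, which encodes a WD-repeat protein of ribosome assembly, on the same side of RNU2-2 as this second peak. Whether the peak covers them was not tested, because the builds differ. These second peaks were the members farthest from a gene position, with an edge at 1740 bp in knockdown cells. The nearest peak outside the 3 kb limit lay 7073 bp from RMRP, with 14 tags in the control list of day 0.

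RNU4-1 and RNU4-2, which encode U4 small nuclear RNA, lie so close together on chromosome 12 that they share peaks. SVIL had 1 peak there (120729299 to 120729646) with 33 tags (22.7 to 46.3), a fold of 30.23 and rank 85, which covered the RNU4-2 position and lay 1354 bp from that of RNU4-1. LSD1 in control cells at day 3 had 2 abutting peaks, 1 at RNU4-2 with 119 tags (98.6 to 142) and a fold of 27.89, and 1 at RNU4-1 with 50 tags (37.1 to 65.9) and a fold of 23.78. LSD1 in control cells at day 0 had 1 peak with 51 tags (38.0 to 67.1) and a fold of 12.72, which covered RNU4-2 and ended 631 bp short of RNU4-1. The LSD1 list of knockdown cells and the LSD1+8a list had no peak within 3 kb. The pair is the only member locus with LSD1 peaks in both control lists and none in knockdown cells. The control peak of day 0 missing from the knockdown list ranked 1797 of 16882, at the 89.4th percentile by score. Of all control peaks of day 0, only 42.1% overlapped a knockdown peak, so such an absence is common in these lists.

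**Figure D2:**
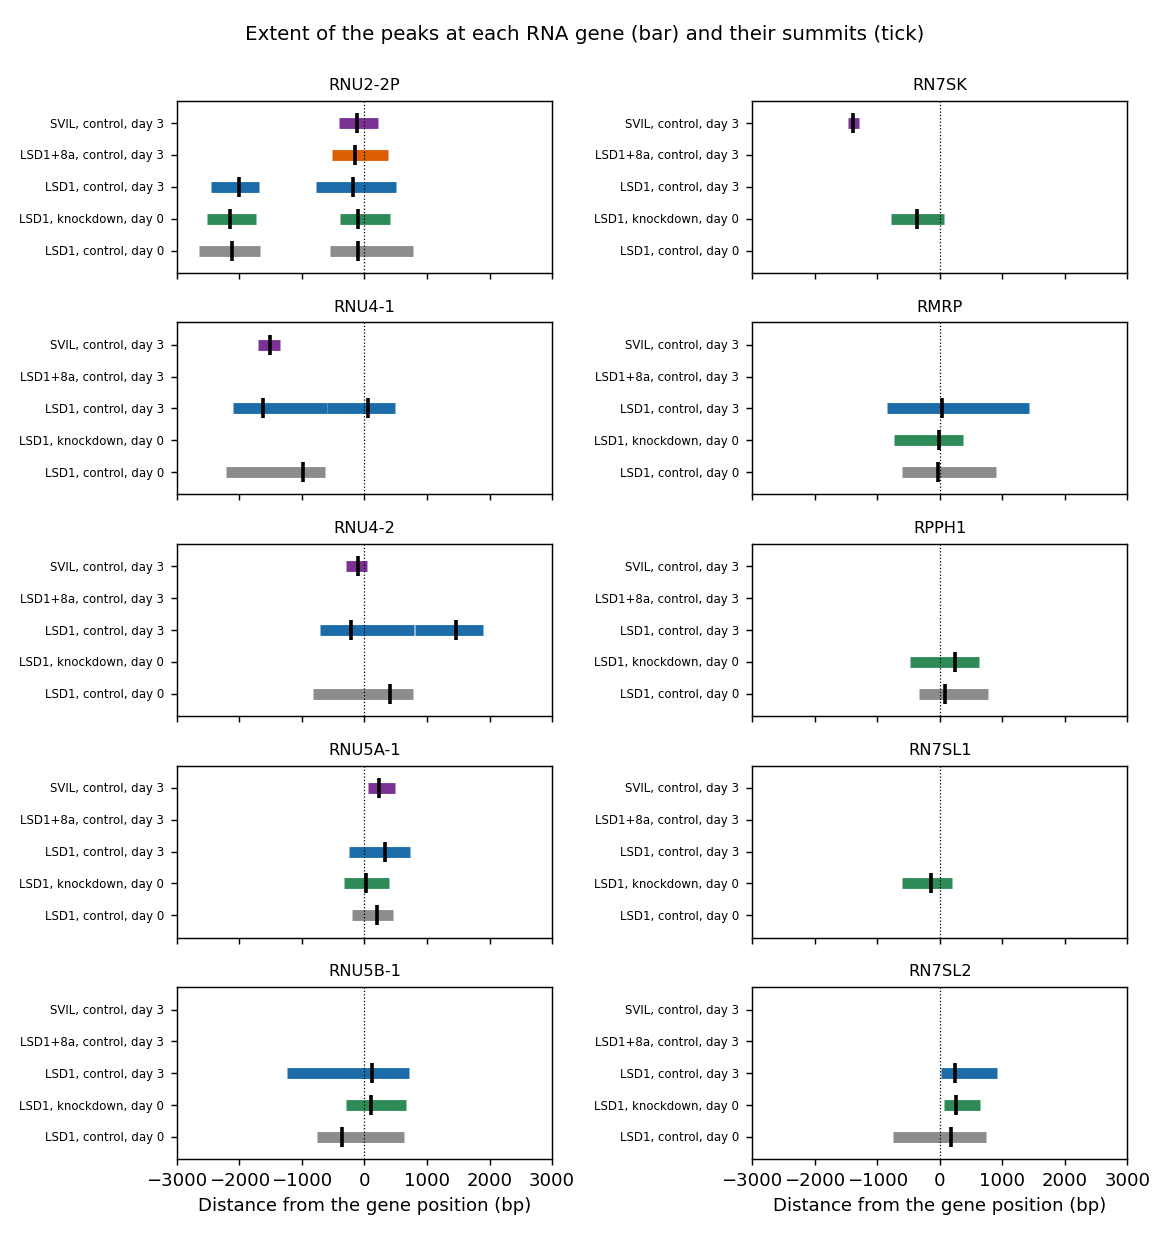
Extent of each peak (bar) and its summit (black tick) in bp from the gene position (dotted line), by peak list, for the 5 polymerase II genes (left) and the 5 polymerase III genes (right). The second LSD1 peak about 2 kb from RNU2-2P is seen in the 3 LSD1 lists, and the SVIL peak near RN7SK does not reach the gene position.

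The U5 small nuclear RNA genes RNU5A-1 and RNU5B-1 lie on chromosome 15. RNU5A-1 had a SVIL peak with 28 tags (18.6 to 40.5) and a fold of 21.16, rank 176 of 1452, whose edge began 62 bp from the gene position. Its LSD1 peak had 68 tags (52.8 to 86.2) and a fold of 23.69 in control cells at day 3. At day 0 it had 20 tags (12.2 to 30.9) and a fold of 7.03 in knockdown cells, against 17 tags (9.90 to 27.2) and a fold of 8.88 in control cells. Within their own lists these 3 LSD1 peaks stood at the 86.6th, 22.9th and 19.9th percentile by score, so the gene was well up in the day 3 list and low in both day 0 lists. RNU5B-1 had no SVIL peak. Its LSD1 peak had 103 tags (84.1 to 125) and a fold of 15.64 in control cells at day 3. At day 0 it had 33 tags (22.7 to 46.3) and a fold of 5.27 in knockdown cells, against 45 tags (32.8 to 60.2) and a fold of 6.97 in control cells. Its percentiles by score were 67.4 at day 3, 11.5 in knockdown cells and 78.4 in control cells at day 0.

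Among the polymerase III genes, RMRP had an LSD1 peak over the gene position in all 3 LSD1 lists and none for SVIL or LSD1+8a. The peak at day 3 in control cells (35657063 to 35659331 on chromosome 9) had 93 tags (75.1 to 114) but a fold of only 6.99. At day 0 RMRP had 60 tags (45.8 to 77.2) and a fold of 8.30 in knockdown cells, against 77 tags (60.8 to 96.2) and a fold of 11.36 in control cells. By score it stood at the 11.6th percentile of the day 3 list, the 70.6th of the knockdown list and the 91.7th of the control list of day 0. The summits were 30 bp from the gene position at day 3, 6 bp in knockdown cells and 35 bp in control cells at day 0.

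RPPH1, on chromosome 14, was listed for LSD1 at day 0 only. It had 53 tags (39.7 to 69.3) and a fold of 8.65 in knockdown cells, against 48 tags (35.4 to 63.6) and a fold of 9.14 in control cells, and stood at percentile 85.9 by score in knockdown cells and 85.3 in control cells. The day 3 list of LSD1 has no peak within 3 kb of it, nor have the SVIL and LSD1+8a lists. Of all control LSD1 peaks of day 0, 50.1% overlapped a day 3 LSD1 peak. The PARP2 window shown above belongs to this gene pair.

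RN7SL2, also on chromosome 14, had LSD1 peaks in all 3 LSD1 lists. They had 55 tags (41.4 to 71.6) and a fold of 13.73 in control cells at day 3. At day 0 they had 26 tags (17 to 38.1) and a fold of 5.96 in knockdown cells, against 42 tags (30.3 to 56.8) and a fold of 13.13 in control cells. The peak in control cells at day 0 covered the gene position, and the other peaks began 19 bp from it at day 3 and 69 bp from it in knockdown cells. RN7SL1 had a single peak, for LSD1 in knockdown cells, with 27 tags (17.8 to 39.3) and a fold of 9.76. Its transcribed part is nearly the same as that of RN7SL2, so reads inside the 2 genes may not be told apart.

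RN7SK, on chromosome 6, had an LSD1 peak in knockdown cells with 32 tags (21.9 to 45.2) and a fold of 7.66, which reached over the gene position with a summit 364 bp from it, and no LSD1 peak in either control list. Its SVIL peak had 12 tags (6.20 to 21.0), a fold of 24.19 and a length of 178 bp, lay 1295 bp from the gene position and overlapped no other list. RN7SK and RN7SL1 were thus listed for LSD1 in knockdown cells and not in control cells at day 0. These 2 peaks ranked 3773 and 3910 of 10248 in the knockdown list, of which 69.4% overlapped a control peak of day 0.

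The place of the LSD1 peaks within each list is given next by polymerase class. In control cells at day 3, the 5 polymerase II genes had their highest scoring peak between percentiles 67.4 and 99.7 by score, and the 2 listed polymerase III genes at 11.6 and 40.3. In knockdown cells at day 0 the polymerase III genes lay between 4.96 and 85.9 and the 3 listed polymerase II genes between 11.5 and 95.3. In control cells at day 0 the 3 listed polymerase III genes lay between 85.3 and 91.7, and the polymerase II genes between 19.9 and 89.4. Among peaks in the upper 50% of each list by score, LSD1 had peaks at 5 polymerase II and 0 polymerase III genes in control cells at day 3. In the same upper part of the day 0 lists it had 1 and 4 in knockdown cells, against 4 and 3 in control cells, where RNU4-1 and RNU4-2 count through 1 peak. No grid share was computed for lists cut in this way, so nothing is read from these counts. By the highest scoring peak of each gene, the ranges of the classes by score did not overlap at day 3 and overlapped in both day 0 lists. With every member peak counted they overlapped at day 3 too, since the second RNU2-2P peak stood at percentile 12.3. The day 3 range of polymerase III rests on 2 genes, and RNU4-1 and RNU4-2 enter the control ranges through 1 shared peak. By tags the ranges of the highest scoring peaks overlapped at day 3 as well, with RMRP at percentile 85.0 and RNU5A-1 at 70.2. No test was made, since each list is 1 library and the genes were picked from these peaks.

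Tags were next compared between genes within 1 library, per kb of peak, because the depth of a library enters both genes of a ratio. The extent of a called peak enters too, and it differed between lists, for RMRP 2269 bp at day 3 and 1515 bp in control cells at day 0. In the SVIL list RNU2-2P had 200 tags per kb, RNU4-2 had 94.8, RN7SK 67.4 and RNU5A-1 64.8. In the day 3 LSD1 list RNU2-2P had 150 tags per kb, and the other genes had between 41.0 at RMRP and 79.1 at RNU4-2. RNU2-2P was also the densest in knockdown cells at day 0, with 87.7 against 27.7 to 54.8 at the others, although its counting interval overlapped that of RMRP. In control cells at day 0 it had 52.3 tags per kb, RMRP 50.8 and RPPH1 44.0. Its counting interval there overlapped those of all other listed genes but RN7SL2. The ratio to RNU2-2P there was 0.972 for RMRP (95% counting interval 0.702 to 1.34) and 0.841 for RPPH1 (0.582 to 1.22). For the other genes it lay between 0.498 at RNU5A-1 (0.293 to 0.847) and 0.617 at RNU5B-1 (0.424 to 0.898).

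**Figure D3:**
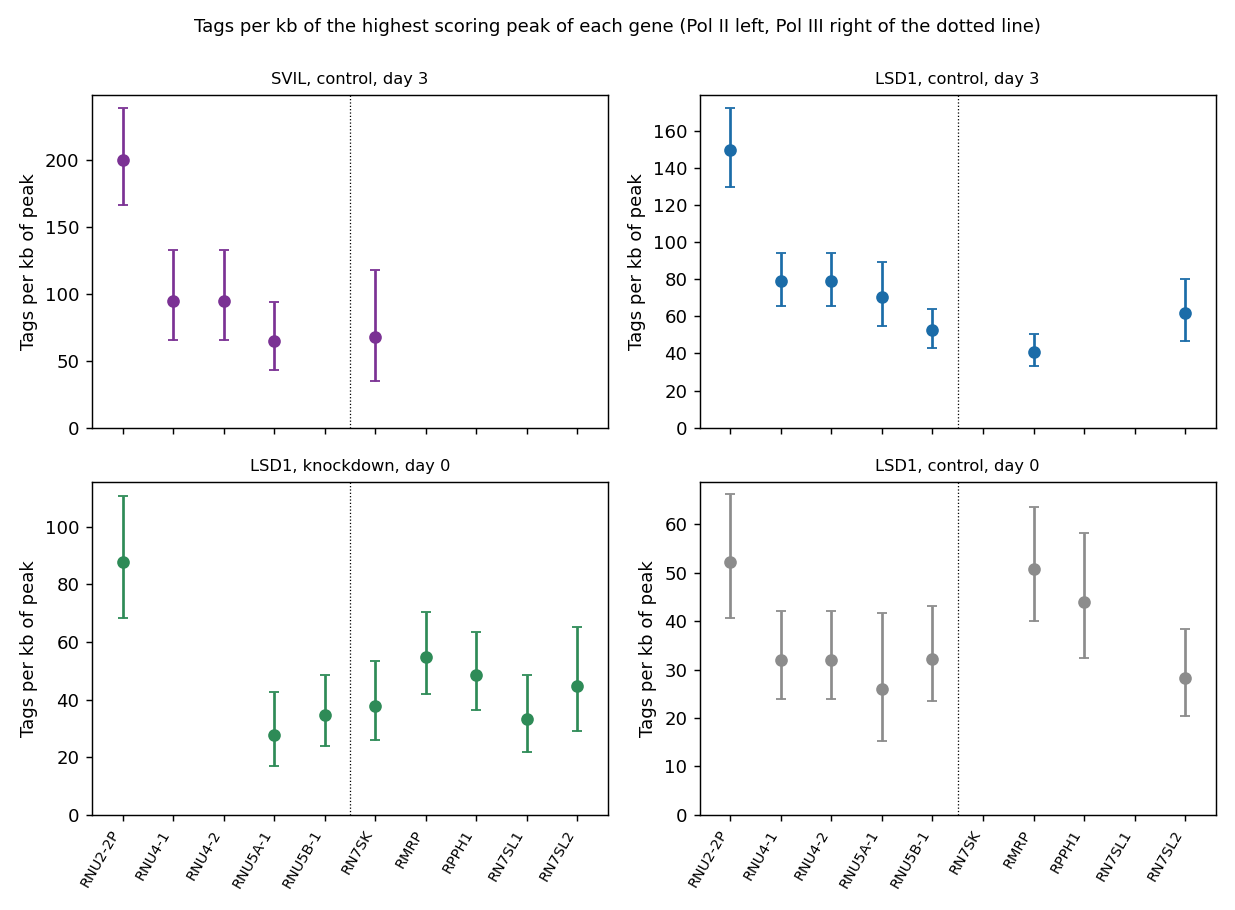
Tags per kb of the highest scoring peak of each gene for SVIL at day 3, LSD1 at day 3, LSD1 in knockdown cells at day 0 and LSD1 in control cells at day 0, with exact Poisson 95% intervals of the tags as bars; each panel has its own scale and missing points had no peak. RNU2-2P is the highest point in every panel. In knockdown cells its interval overlaps that of RMRP, and in the control cells of day 0 those of all other listed genes but RN7SL2.

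RMRP over RNU2-2P was 0.273 tags per kb for each 1 of RNU2-2P in control cells at day 3, against 0.972 in control cells at day 0, a quotient of 0.281 (95% interval on the log scale from the 4 tag counts, 0.187 to 0.423). For the other genes with peaks on both days, the same quotient of day 3 over day 0 was 0.569 (0.365 to 0.889) for RNU5B-1, 0.760 (0.467 to 1.24) for RN7SL2, 0.861 (0.561 to 1.32) for the RNU4 pair and 0.945 (0.520 to 1.72) for RNU5A-1. Without division by peak length, it was 0.434 (0.288 to 0.653) for RMRP, 0.823 (0.527 to 1.28) for RNU5B-1, 0.471 (0.289 to 0.766) for RN7SL2, 0.839 (0.547 to 1.29) for the RNU4 pair and 1.44 (0.790 to 2.62) for RNU5A-1. At day 3 the value of the RNU4 pair rests on the peak at RNU4-2, with 119 tags. It leaves out the abutting peak at RNU4-1, with 50 tags, and no quotient was computed with both. RMRP had the lowest value by both measures, while RNU5A-1 turned above 1 and the order of RNU5B-1 and RN7SL2 changed.

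For knockdown over control cells at day 0, the quotient per kb was 0.633 (0.306 to 1.31) for RNU5A-1, 0.638 (0.365 to 1.12) for RNU5B-1, 0.643 (0.40 to 1.03) for RMRP, 0.658 (0.394 to 1.10) for RPPH1 and 0.938 (0.519 to 1.70) for RN7SL2. Without division by peak length, it was 1.16 (0.561 to 2.40) for RNU5A-1, 0.723 (0.413 to 1.26) for RNU5B-1, 0.768 (0.478 to 1.23) for RMRP, 1.09 (0.652 to 1.82) for RPPH1 and 0.610 (0.338 to 1.10) for RN7SL2. RNU5A-1 and RPPH1 thus lay below 1 by one measure and above 1 by the other. All quotients share RNU2-2P as denominator. Its peak stood at percentile 99.7 by score at day 3, 95.3 in knockdown cells and 80.3 in control cells at day 0. A low quotient can thus come from RNU2-2P as well as from the named gene. The 11 quotients of the 2 comparisons, in which RNU4-1 and RNU4-2 count separately, are a description of single libraries at genes picked for their peaks, and no difference is called from them. The intervals cover counting error only, and PCR copies are not independent molecules.

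In the day 0 lists, most member peaks ranked higher by tags than by fold enrichment. Of the 30 member peaks, 19 stood at a higher percentile of their list by tags than by fold, against 48.0% of all peaks of the 5 lists together. At day 3 these were 1 of 4 for SVIL, 1 of 1 for LSD1+8a and 4 of 8 for LSD1. At day 0 they were 7 of 9 in knockdown cells and 6 of 8 in control cells. The widest gap was at RMRP in control cells at day 3, where the peak stood at the 85.0th percentile by tags and the 0.178th by fold. Next came RNU5B-1 at day 0, with 82.1 by tags and 19 by fold in control cells and 59.9 and 4.02 in knockdown cells. The reverse was seen for the SVIL peak near RN7SK, at the 1.10th percentile by tags and the 76.5th by fold. Member peaks were longer than the median of their list in 23 of 30 cases. The median member peak had 30.5 tags for SVIL (20 over the list), 80.5 for LSD1 in control cells at day 3 (50 over the list), 33 in knockdown cells (28) and 46.5 in control cells at day 0 (26). The median fold of the member peaks was 27.21 for SVIL (18.21 over the list), 19.66 for LSD1 at day 3 (17.05), 8.30 in knockdown cells (9.13) and 9.01 in control cells at day 0 (9.30). The member medians of tags were thus above the list medians in these 4 lists, while those of fold were above them at day 3 and slightly below them at day 0. The names of the lists set each ChIP sample against input, without saying which input library, and the part of the input in these gaps was not tested.

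**Figure D4:**
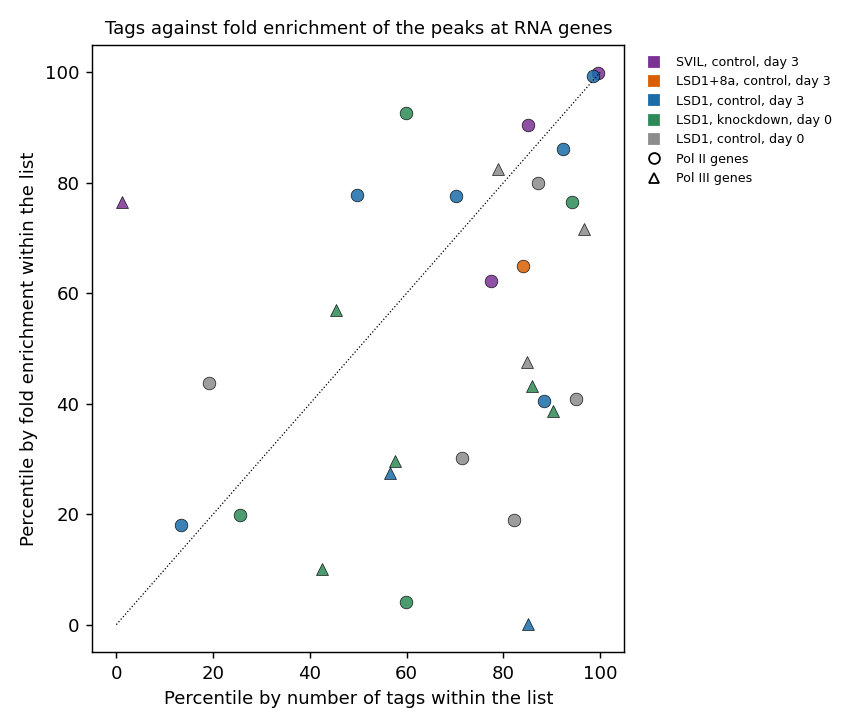
Percentile by number of tags (horizontal) against percentile by fold enrichment (vertical) of the 30 member peaks, each within its own list; colour gives the list, circles polymerase II genes, triangles polymerase III genes, and the dotted line equal percentiles. The triangle at the lower right is RMRP in control cells at day 3, at 85.0 by tags and 0.178 by fold.

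The overlaps of the lists at these genes are given for each pair beside the share over all peaks. Of the day 3 LSD1 peaks in control cells, 7 of 8 member peaks overlapped a day 0 peak (40.1% of all), and 7 of the 8 day 0 member peaks overlapped a day 3 peak (50.1%). The exceptions were the RNU4-1 peak of day 3 and the RPPH1 peak of day 0. Of the knockdown member peaks, 7 of 9 overlapped a control peak of day 0 (69.4% of all), the exceptions being RN7SK and RN7SL1, and 7 of the 8 control member peaks overlapped a knockdown peak (42.1%), all but the peak at the RNU4 pair.

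The only LSD1+8a member peak, at RNU2-2P, overlapped a day 3 LSD1 peak (59.6% of all LSD1+8a peaks), and 1 of the 8 day 3 LSD1 member peaks overlapped an LSD1+8a peak (9.69%). Of the SVIL member peaks, 1 of 4 overlapped an LSD1+8a peak (18.6% of all) and 3 of 4 a day 3 LSD1 peak (58.7%), the exception for LSD1 being the peak near RN7SK. In turn, 1 of 1 LSD1+8a member peak overlapped a SVIL peak (7.70%), as did 3 of the 8 day 3 LSD1 member peaks (3.97%), at RNU2-2P, RNU4-2 and RNU5A-1. All 3 are polymerase II genes. The genes were picked on the same listing of peaks, so these shares are not evidence that the genes differ from the rest of the lists.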

How the data were processed

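The 5 peak lists were used as deposited, 1 per library, on hg19. Reads of 50 bp (single end, per the labels' protocols) were processed with CASAVA and Bowtie 1.0.0, per the submitters' processing notes, which also name mm9. The peak caller, its threshold, the input behind each list and any removal of PCR copies have no mention in the sources used here. Per the file headers, the deposited tags are raw counts per peak and the fold is a fold enrichment (a ratio). The authors' remaining column, whose header is damaged, was treated as a score. Library totals are unknown, so raw tags of different libraries are printed beside each other as description and do not measure a change. Comparisons between libraries used tags relative to those of RNU2-2P in the same library, and no floor was set.

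Peaks with an edge within 3 kb of each gene position were collected, ranked within their list and overlapped (at least 1 bp), with exact Poisson 95% intervals, using Python 3.11.15, numpy 2.4.6, pandas 2.3.3, scipy 1.17.1 and matplotlib 3.10.9. The overlap, window and grid steps were tested on simulated peaks, and the merging of regions was not. Every member peak is described. The highest scoring peak stood for a gene in ratios and class ranges. The other regions named are the 3 nearest to RNU2-2P in score percentiles. Members, gene positions, lists and the rules for them were chosen with earlier results of these data known. With 1 library per group no test was possible. The alternatives were the distance limit, score and fold thresholds, equal list sizes, overlap, the ranking measure and the peak standing for a gene. The quotients relative to RNU2-2P were added after seeing the data, first from undivided tags and then per kb of peak, and both are given. The input samples and 9 ChIP samples were not analysed here.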

Additional observations from a re-analysis of the deposited data

How the results depend on the processing

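Of the values recomputed under the alternatives, 41 counts or medians moved, counts by more than 1.5 times and medians by any amount, and the other 137 were equal or, for counts, within 1.5 times. The cause was not tested beyond the construction of each alternative, and no grid share was computed under the alternatives. With peak edges within 1 kb, SVIL had peaks at 3 genes in place of 5 and at 0 polymerase III genes in place of 1. In the upper 50% of each list by score, LSD1 in knockdown cells had peaks at 5 genes in place of 8 and at 1 polymerase II gene in place of 3. Polymerase III genes fell to 0 for SVIL and to 0 for LSD1 at day 3. In this upper part, 3 peaks in place of 7 overlapped between day 3 and day 0 and between knockdown and control cells, both ways. The member peaks also became fewer, 5 in place of 8 at day 3, 6 in place of 9 in knockdown cells and 6 in place of 8 in control cells at day 0. The share over all peaks was not computed for this setting. At the lowest SVIL score, 71.72, for all lists, knockdown cells had 5 genes, 1 of polymerase II, and LSD1 at day 3 had 1 polymerase III gene. With 1452 peaks in every list, LSD1 had 1 gene at day 3 (1 of polymerase II, 0 of polymerase III), 2 in knockdown cells (1 and 1) and 1 in control cells at day 0 (0 and 1), and 0 genes had peaks in all 5 lists. With the fold raised to 1.5 times each list's minimum, LSD1 at day 3 had 1 polymerase III gene. With a reciprocal overlap of 50%, SVIL and day 3 LSD1 shared 0 member peaks in place of 3, both ways. The median percentile of member peaks, which by score was 91.0 for SVIL, 88.4 for LSD1+8a, 71.7 for LSD1 at day 3, 63.2 in knockdown cells and 82.8 in control cells at day 0, was 83.5, 64.9, 59, 38.6 and 45.7 by fold and 81.3, 84.0, 77.6, 59.9 and 83.5 by tags in the same order. With only the highest scoring peak of each gene it was 77.0 for LSD1 at day 3, 62.5 in knockdown cells and 85.3 in control cells at day 0, and the median summit distance was 127 bp in place of 142 in knockdown cells and 188 bp in place of 193.5 in control cells at day 0. Without division by peak length, the quotient of day 3 over day 0 was 0.823 (0.527 to 1.28) for RNU5B-1 in place of 0.569 (0.365 to 0.889). For RN7SL2 it was 0.471 (0.289 to 0.766) in place of 0.760 (0.467 to 1.24). No paired analysis was possible because each group is 1 library, and for the same reason no library could be left out. Tag counts of 12 to 192 per member peak limit the precision.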

Other observations

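Outside the 10 genes, 138 other merged regions held peaks of all 5 lists. By score, 1 of these stood above RNU2-2P in the SVIL list and 14 in the day 3 LSD1 list. The 3 regions nearest to RNU2-2P in their score percentiles over the 5 lists, by Euclidean distance, were chr6:26187975-26189691 (distance 15.7), chr6:26103732-26104972 (16.6) and chr17:41437479-41439206 (18.4), all on hg19. The region on chromosome 17 had 83 SVIL tags with a fold of 78.3 and 56 LSD1+8a tags with a fold of 15.36. Its LSD1 peaks had 149 tags at day 3, and at day 0 it had 59 tags in knockdown cells and 63 in control cells. The first region on chromosome 6 had 27 SVIL tags with a fold of 34.43, 67 LSD1+8a tags with a fold of 37.85 and 166 day 3 LSD1 tags with a fold of 40.48. No gene names were given to these regions, since no annotation of their build was used here.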
